A study of Mus musculus with 6 samples.

Results

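Genes that respond to low oxygen, other than the enzymes of core glycolysis, were examined in mammary tumours of mice. The list held 35 genes, chosen by name and not by a threshold on the measured values. A gene was followed through every array probe annotated to it, older synonyms included, and 34 of the 35 had such a probe, 70 probes in all of 45281 on the array. Of these 34 genes, 31 were bright enough to test, among 12864 tested genes of 19057 with a named probe. Each of the 31 lay above the background limit on all 6 arrays.

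The tumours came from 12-week-old females of the FVB (pure) strain. The 3 PyMT/ETP tumours (PyMT/C5 in the labels) carried 2 transgenes, polyomavirus middle T and endotrophin. The 3 PyMT control tumours carried only middle T, which all 6 tumours shared and which the mouse mammary tumour virus promoter drives in mammary epithelium. Endotrophin is the fragment cleaved from the carboxy terminus of collagen VI alpha 3, and the promoter of its transgene is not named in the labels. Nothing in the labels ties each array to a separate mouse, so the p-values speak only of the spread between these 6 arrays, part of which may be technical.

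In cells with enough oxygen, prolyl hydroxylases mark the alpha subunits of hypoxia-inducible factor (HIF) for destruction by way of the VHL ubiquitin ligase. When oxygen falls, the alpha subunits persist, pair with ARNT and bind short DNA elements in their target genes. The targets raise blood vessel growth, acid export, glycolysis, mitophagy and collagen modification. In solid tumours such genes mark regions far from vessels, and PyMT tumours, which grow as dense epithelial nodules, are one of the models in which HIF function has been studied.

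Levels are given in log2 units, the log2 of background-corrected intensity plus 16, and differences are PyMT/ETP minus PyMT control on that scale. The constant compresses the differences of dim genes. Levels of different probes were not compared with each other. In bulk tumour RNA, fewer cells of a type and less RNA per cell cannot be told apart.

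No hypoxia gene differed between PyMT/ETP and PyMT control tumours in limma's test with Benjamini-Hochberg adjustment over all genes. The count at adjusted p 0.05 was 0 of 31, where 0% of all tested genes passed, and the lowest adjusted p of the list was 0.997. At an unadjusted p of 0.05 the count was also 0 of 31, against 4.31% of all genes (2.28% higher and 2.04% lower). The difference was above 0 for 14 genes and below 0 for 17, while 50.8% of all genes were above 0. Its median over the 31 genes was -0.05 log2 units, beside 0.00 over all genes (0.0041 before rounding). By the brightest probe of each gene, in none of the 31 did the 3 PyMT/ETP tumours separate from the 3 PyMT control tumours, against 8.19% of all genes whose groups did not overlap (4.54% higher and 3.65% lower). Over all 56 tested probes of the list, the groups did not overlap for 3, against 8.91% of all tested probes: 1 dimmer Plod2 probe was higher and 2 dimmer Arnt probes were lower in PyMT/ETP tumours.

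The hypoxia genes varied widely among the PyMT/ETP tumours. PyMT/ETP replicate 3 was the highest of the 6 tumours for 22 of the 31 genes, or 71.0%, against 16.7% of all genes. PyMT/ETP replicate 1 was the lowest for 18, or 58.1%, against 16.1% of all genes. The median deviation of the 31 genes from their own means was -0.46 in PyMT/ETP replicate 1, -0.28 in replicate 2 and 0.68 in replicate 3, beside -0.06, 0.09 and 0.12 in PyMT control replicates 1, 2 and 3. For all genes these medians lay between -0.0103 and 0.0110. The 31 genes share a tumour and an array in each column, so they are not independent observations of it.

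**Figure D1:**
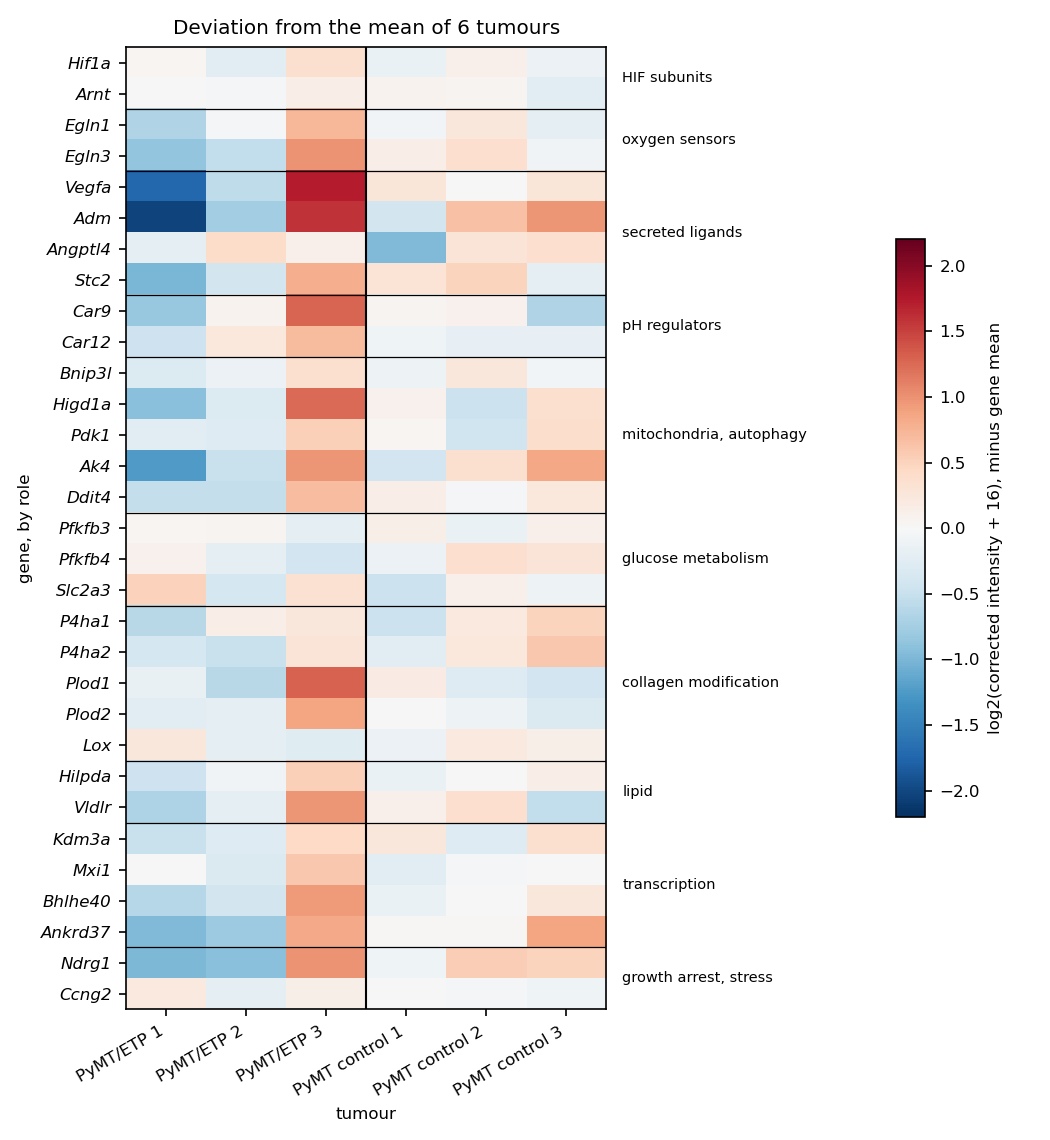
Each row is a tested hypoxia gene, grouped by role, and each column a tumour, with the 3 PyMT/ETP tumours on the left. Colour gives the level minus the gene's mean over the 6 tumours, in log2 units. The column of PyMT/ETP replicate 3 is red in most rows (median 0.68) and that of PyMT/ETP replicate 1 blue (median -0.46), while the 3 PyMT control columns lie between them.

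The PyMT control tumours fell inside the range of the PyMT/ETP tumours for 21 of the 31 genes, or 67.7%, which held for 19.2% of all genes. The reverse, PyMT/ETP tumours inside the control range, was seen for 0 of the 31 genes and for 22.6% of all genes. The SD among PyMT/ETP tumours exceeded that among PyMT control tumours for 26 of the 31 genes (83.9%, against 46.4% of all genes). Its median was 0.58 log2 units in PyMT/ETP and 0.26 in PyMT control tumours, beside 0.19 and 0.20 over all genes. No test was made of this difference in spread, which rests on 3 tumours a group.

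**Figure D2:**
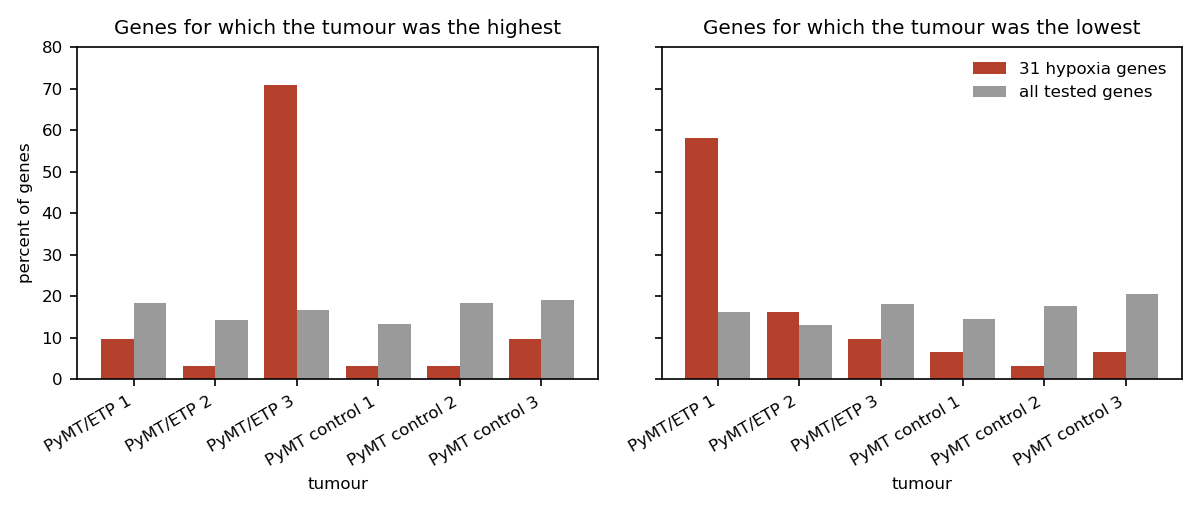
Bars give the percent of genes for which a tumour was the highest (left panel) or the lowest (right panel) of the 6, in red for the 31 tested hypoxia genes and in grey for all tested genes. PyMT/ETP replicate 3 was highest for 71.0% of the hypoxia genes and PyMT/ETP replicate 1 lowest for 58.1%, while no grey bar exceeds 20.5%.

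Within the list, Vegfa had the largest excess in PyMT/ETP replicate 3, and 7 genes outside the list had a larger one. From the largest down, these were Comp (3.29 log2 units), Slc25a34, Wnk4, Mgarp, Tesc, Crispld2 and Eno2. Of the 100 genes, among all 12864, that stood farthest above the mean of the other 5 tumours in this tumour, 13 were members of the list. Another 4 were on the 2 lists of glycolysis genes and of other hypoxia-induced genes described below. The rest of the 100 were on none of these lists. None of the 100 genes that stood farthest below it was a member. By this measure Vegfa ranked 8, Adm 12, Plod1 21, Car9 22 and Higd1a 25 of all genes, and the excess was 2.08 log2 units for Vegfa, 1.90 for Adm, 1.56 for Plod1 and 1.54 for Car9. In 15 of the 31 genes this tumour was at least 2-fold above the mean log2 level of the other PyMT/ETP tumours (48.4%, against 1.15% of all genes). Outside the list, the glycolytic genes Eno2 and Pfkp had an excess of 2.13 and 1.57, and Pgf, the placental growth factor gene, of 1.70. These 3 genes were picked after their values were seen, as was the comparison of this tumour with the other 5.

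Promoter sequences were searched for the core letters that HIF binds. RefSeq start sites on GRCm38.p6 were listed for 27 of the 35 genes, and in each the 250 bases before the outermost start were read on both strands for ACGTG and GCGTG, the core of the hypoxia response element. ACGTG was found for 12 of 27 genes (44.4%), against 16.5% of 27025 genes with a listed start, and GCGTG for 18 (66.7%), against 28.3%. Either was found for 22 (81.5%), against 38.6%. The list was named for a response to low oxygen, so a larger share than over all genes may come from how it was made. A CACGTG box counts on both strands, and the windows of the list were richer in G and C, with a median of 60.4%, than those of all genes (52.0%). Shown here are the 4 genes of largest excess in PyMT/ETP replicate 3 whose window held a match, each 5′ to 3′ on the gene's strand, with the matched letters in capitals (CACGT and CACGC are ACGTG and GCGTG on the other strand). They lie at chr7:110627407-110627656 (plus strand) for Adm, chr4:147936777-147937026 (minus strand) for Plod1, chr4:43506776-43507025 (plus strand) for Car9 and chr9:121857797-121858046 (minus strand) for Higd1a.
Adm: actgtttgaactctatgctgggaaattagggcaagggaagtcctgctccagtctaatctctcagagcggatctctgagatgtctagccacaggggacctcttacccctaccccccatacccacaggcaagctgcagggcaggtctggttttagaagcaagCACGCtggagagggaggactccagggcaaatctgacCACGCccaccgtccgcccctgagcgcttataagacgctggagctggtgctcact
Plod1: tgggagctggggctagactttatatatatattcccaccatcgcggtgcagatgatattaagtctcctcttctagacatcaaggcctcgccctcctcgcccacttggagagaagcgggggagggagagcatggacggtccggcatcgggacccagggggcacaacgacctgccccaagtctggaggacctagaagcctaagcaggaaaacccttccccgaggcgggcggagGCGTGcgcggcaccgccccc
Car9: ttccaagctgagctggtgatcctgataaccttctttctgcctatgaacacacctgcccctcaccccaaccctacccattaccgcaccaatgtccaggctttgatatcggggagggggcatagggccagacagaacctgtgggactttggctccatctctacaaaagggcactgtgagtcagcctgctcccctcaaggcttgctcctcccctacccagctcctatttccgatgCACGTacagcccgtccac
Higd1a: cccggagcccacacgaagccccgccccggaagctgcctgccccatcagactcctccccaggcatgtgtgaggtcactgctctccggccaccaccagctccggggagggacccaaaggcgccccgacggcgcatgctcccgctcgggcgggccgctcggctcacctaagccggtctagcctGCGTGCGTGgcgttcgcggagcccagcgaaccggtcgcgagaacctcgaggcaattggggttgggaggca
A match is a description of letters and not of binding. Car9, an established HIF target, has its single match close to the start, and Higd1a has overlapping GCGTG matches. The Vegfa window held no match.

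Of the HIF subunits, Hif1a was highest in PyMT/ETP replicate 3 by both tested probes, and Arnt by its brightest probe only. Hif1a, the oxygen-regulated alpha subunit, was at 6.74, 6.44 and 7.05 in PyMT/ETP tumours, against 6.54, 6.80 and 6.57 in PyMT control tumours. The 6 tumours spanned 0.61 log2 units. The difference of Hif1a was 0.11 (SE 0.18), with a 95% interval of -0.31 to 0.52. A dimmer Hif1a probe spread more, at 4.19, 4.68 and 5.997 in PyMT/ETP tumours, against 4.80, 4.94 and 5.28 in PyMT control tumours, a difference of -0.05. It was above the background limit on 2 of the 3 PyMT/ETP arrays and on all 3 PyMT control arrays. Arnt, the constitutive partner subunit, was at 9.13, 9.08 and 9.26 in PyMT/ETP tumours, against 9.18, 9.17 and 8.87 in PyMT control tumours. Its difference was 0.08 (SE 0.15), and its 6 tested probes ran from -0.44 to 0.08. The groups did not overlap for 2 of the dimmer Arnt probes, both lower in PyMT/ETP tumours, at -0.32 and -0.44. Epas1, which encodes HIF-2 alpha, was not tested, since neither of its probes was above the background limit on 3 arrays.

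Of the oxygen sensors, Egln3 carried the pattern more clearly than Egln1. Egln3 encodes the prolyl hydroxylase PHD3 and is itself induced by HIF. It was at 10.996, 11.33 and 12.86 in PyMT/ETP tumours, against 12.01, 12.24 and 11.80 in PyMT control tumours. The 3 control values lay between those of PyMT/ETP replicate 2 and replicate 3, and the difference was -0.29 (SE 0.42). The other tested Egln3 probes, at -0.30 and -0.01, were also highest in PyMT/ETP replicate 3. Egln1, which encodes the main oxygen sensor PHD2, was at 5.06, 5.69 and 6.46 in PyMT/ETP tumours, against 5.67, 5.98 and 5.52 in PyMT control tumours, and had a difference of 0.01 (SE 0.32).

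The secreted ligands spread most. Vegfa, the main angiogenic growth factor gene, was at 8.82, 9.98 and 12.28 in PyMT/ETP tumours, against 10.81, 10.54 and 10.81 in PyMT control tumours. Its level in PyMT/ETP replicate 3 was 7.33-fold above the mean log2 level of the other PyMT/ETP tumours, and the controls lay close together between them. The SD was 1.76 in PyMT/ETP and 0.16 in PyMT control tumours (n = 3 each), and the difference of -0.36 had a 95% interval of -1.98 to 1.26. A dimmer Vegfa probe had the same order of PyMT/ETP tumours, at 6.19, 7.63 and 9.61, against 8.10, 8.36 and 8.40 in PyMT control tumours.

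Adm, which encodes the vasodilator peptide adrenomedullin, was at 4.73, 6.01 and 8.35 in PyMT/ETP tumours, against 6.36, 7.41 and 7.73 in PyMT control tumours. Its difference, -0.81 (SE 0.79), was the farthest from 0 in the list, and PyMT/ETP replicate 3 was nevertheless the highest of the 6. PyMT/ETP replicate 1 was close to the background limit of 4.61. Stc2, the gene of the secreted glycoprotein stanniocalcin 2, was at 6.96, 7.55 and 8.76 in PyMT/ETP tumours, against 8.25, 8.45 and 7.76 in PyMT control tumours. Its difference was -0.40 (SE 0.41). Angptl4, which encodes an inhibitor of lipoprotein lipase, did not follow: it was at 9.03, 9.65 and 9.35 in PyMT/ETP tumours, against 8.28, 9.53 and 9.60 in PyMT control tumours.

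**Figure D3:**
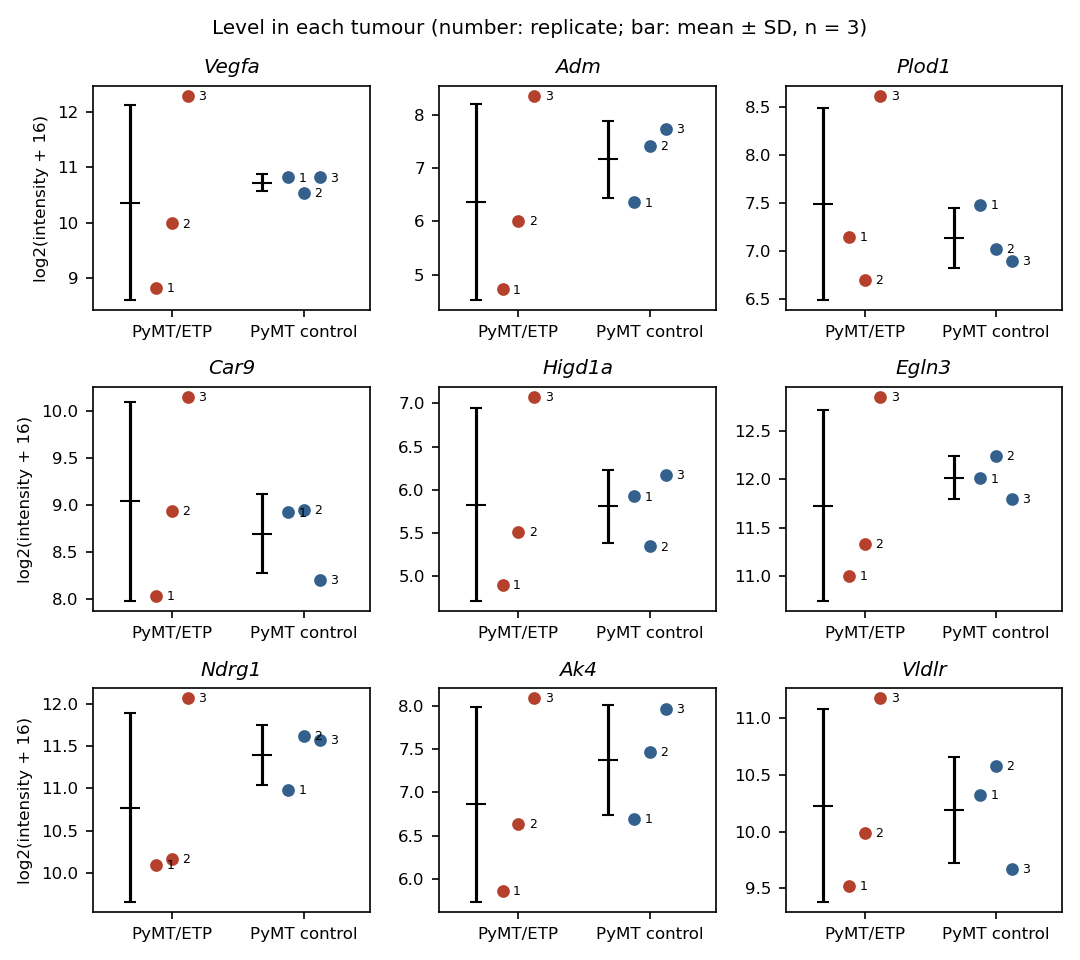
Panels show the 9 tested hypoxia genes with the largest excess in PyMT/ETP replicate 3, chosen for that excess. Points are tumours, red for PyMT/ETP and blue for PyMT control, numbered by replicate, on an axis of log2 units that does not start at 0, with the mean and SD (n = 3) at the left of each group. In all 9 panels point 3 of PyMT/ETP is the top one, as for Vegfa at 12.28 in PyMT/ETP replicate 3, against 10.54 to 10.81 in the controls.

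The genes of pH control were both highest in PyMT/ETP replicate 3. Car9, the membrane carbonic anhydrase used as a marker of tumour hypoxia, was at 8.03, 8.94 and 10.15 in PyMT/ETP tumours, against 8.92, 8.96 and 8.21 in PyMT control tumours. Its difference was 0.34 (SE 0.47), and its 3 tested probes disagreed in sign, from -0.10 to 0.34. Car12, a related membrane carbonic anhydrase, was at 10.95, 11.64 and 12.10 in PyMT/ETP tumours, against 11.32, 11.22 and 11.23 in PyMT control tumours. The Car12 difference was 0.30 (SE 0.26), with a 95% interval of -0.29 to 0.90. PyMT/ETP replicate 2 was above the controls for Car12 as well, and PyMT/ETP replicate 1 below them.

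All 5 tested mitochondrial and autophagy genes were highest in PyMT/ETP replicate 3. Ak4, a mitochondrial adenylate kinase gene, was at 5.87, 6.63 and 8.09 in PyMT/ETP tumours, against 6.70, 7.47 and 7.96 in PyMT control tumours, a difference of -0.51 (SE 0.53). Higd1a, a small mitochondrial protein gene, was at 4.90, 5.51 and 7.07 in PyMT/ETP tumours, against 5.92, 5.34 and 6.17 in PyMT control tumours. Ddit4, which encodes the mTORC1 inhibitor REDD1, was at 10.45, 10.45 and 11.65 in PyMT/ETP tumours, against 11.13, 10.95 and 11.20 in PyMT control tumours. In these 3 genes PyMT/ETP replicate 1 was at the bottom. Bnip3l, a mitophagy receptor gene, spanned 0.64 log2 units from 10.62 in PyMT/ETP replicate 1 to 11.26 in replicate 3. Pdk1, whose kinase shuts pyruvate dehydrogenase, spanned 0.97 log2 units and was highest in PyMT/ETP replicate 3, at 8.72. Bnip3, the paralogue of Bnip3l, had a single probe, which was above background on none of the 6 arrays.

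Regulators of glucose use were the group that did not follow. Pfkfb4, which encodes a bifunctional enzyme that sets fructose 2,6-bisphosphate, was at 6.23, 5.95 and 5.73 in PyMT/ETP tumours, against 6.02, 6.50 and 6.43 in PyMT control tumours. It had the smallest unadjusted p of the list (0.107 in limma's test, adjusted p = 0.997) at a difference of -0.35 (SE 0.19). PyMT/ETP replicate 3 was the lowest tumour for it, and also for the related Pfkfb3, at 4.92 in a range up to 5.25. Slc2a3, the glucose transporter GLUT3 gene, was at 5.98, 5.10 and 5.82 in PyMT/ETP tumours, against 5.005, 5.60 and 5.38 in PyMT control tumours. Its highest value was in PyMT/ETP replicate 1, and its difference was 0.31 (SE 0.25).

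Collagen-modifying genes split. Plod1 and Plod2, the lysyl hydroxylase genes, were both highest in PyMT/ETP replicate 3. Plod1 was at 7.15, 6.70 and 8.61 in PyMT/ETP tumours, against 7.48, 7.02 and 6.89 in PyMT control tumours. Plod2 was at 7.77, 7.79 and 8.86 in PyMT/ETP tumours, against 8.01, 7.88 and 7.67 in PyMT control tumours. The differences were 0.35 (SE 0.43) for Plod1 and 0.29 (SE 0.29) for Plod2. The 3 tested Plod2 probes ran from 0.20 to 0.73. The highest difference came from the dimmest, at 5.27, 5.37 and 5.55 in PyMT/ETP tumours, against 4.34, 4.89 and 4.77 in PyMT control tumours, without overlap. This probe was above the background limit of 4.61 on all 3 PyMT/ETP arrays but on only 2 of the 3 PyMT control arrays. It had the only unadjusted p under 0.05 among the 56 probes, 0.00281 (limma adjusted p over all probes 1.00), where 4.69% of all tested probes had one. For the prolyl 4-hydroxylase subunits P4ha1 and P4ha2 the highest tumour was PyMT control replicate 3, by the brightest probe of each. The other tested P4ha1 probe, of about the same level, was highest in PyMT/ETP replicate 3, at 6.51. Its difference was 0.03, against -0.14 for the brightest probe, so the placing of P4ha1 depends on the probe. P4ha2 was at 8.04, 7.93 and 8.70 in PyMT/ETP tumours, against 8.17, 8.65 and 8.9998 in PyMT control tumours, a difference of -0.39 (SE 0.27). Lox, the gene of the collagen cross-linking lysyl oxidase, was at 8.33, 7.90 and 7.81 in PyMT/ETP tumours, against 7.97, 8.31 and 8.21 in PyMT control tumours, with PyMT/ETP replicate 3 lowest and a difference of -0.15 (SE 0.18). Ero1l (now Ero1a), an oxidase of the endoplasmic reticulum, had 2 probes, neither above background on any array.

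Lipid genes and most transcriptional regulators were highest in the same tumour. Hilpda, which encodes an inhibitor of lipolysis on lipid droplets, spanned 9.21 in PyMT/ETP replicate 1 to 10.18 in replicate 3. Vldlr, a lipoprotein receptor gene, spanned 9.52 to 11.18 in the same tumours. Bhlhe40, a transcriptional repressor gene, was at 10.20, 10.43 and 11.76 in PyMT/ETP tumours, against 10.69, 10.83 and 11.08 in PyMT control tumours. Kdm3a, a histone H3 lysine 9 demethylase gene, was at 9.05, 9.25 and 9.98 in PyMT/ETP tumours, against 9.78, 9.26 and 9.89 in PyMT control tumours. Mxi1, a MYC antagonist, was at 7.72, 7.40 and 8.31 in PyMT/ETP tumours, against 7.48, 7.68 and 7.70 in PyMT control tumours. The differences were -0.22 (SE 0.27) for Kdm3a and 0.19 (SE 0.23) for Mxi1. By its brightest probe, each of these 5 genes was highest in PyMT/ETP replicate 3. A dimmer tested Kdm3a probe was instead highest in PyMT control replicate 3, at 8.76, against 8.68 in PyMT/ETP replicate 3. Another Kdm3a probe was highest in PyMT/ETP replicate 3, at 8.85.

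Ankrd37, a nuclear ankyrin repeat gene and HIF target, was at 6.80, 6.97 and 8.59 in PyMT/ETP tumours, against 7.79, 7.80 and 8.64 in PyMT control tumours. Its difference was -0.62 (SE 0.45). Ndrg1, a stress and differentiation gene strongly induced by hypoxia, was at 10.09, 10.16 and 12.06 in PyMT/ETP tumours, against 10.98, 11.62 and 11.57 in PyMT control tumours. Its difference was -0.62 (SE 0.48), with a 95% interval of -1.72 to 0.48. For both genes PyMT/ETP replicates 1 and 2 were the 2 lowest tumours, as for 12 of the 31 genes (38.7%, against 6.82% of all genes). Ccng2, a cyclin gene linked to cell cycle arrest, varied little, between 6.63 and 7.07. Selenbp1 had no probe annotated to it here.

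Most probes of the list gave the same highest tumour. Of 56 tested probes of the list, 40 were highest in PyMT/ETP replicate 3, against 17.3% of all tested probes, and 33 were lowest in PyMT/ETP replicate 1. Probes of a gene share its transcript, so they repeat rather than replicate. The sign of the difference between groups was less stable: of 14 genes with 2 or more tested probes, the probes of 7 had a single sign.

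Since a single tumour carried so much of the spread, the comparison turned on which PyMT/ETP tumours were in it. Without PyMT/ETP replicate 3, 25 of the 31 genes had a difference below 0 (48.5% of all genes did), with a median of -0.28. Of these, 10 had an unadjusted p under 0.05, against 5.17% of all genes in either direction and 2.49% lower by that rule, and none passed adjustment (lowest adjusted p in limma's test 0.748). This tumour was singled out for its high values of these same genes. Lower differences and a smaller spread without it are therefore built into the choice, and the count is no support for a difference. Ndrg1 was then at -1.26 (SE 0.22), Vegfa at -1.32 (SE 0.32), Adm at -1.80 (SE 0.48) and Ankrd37 at -1.19 (SE 0.27). Without PyMT/ETP replicate 1, 22 of the 31 genes had a difference above 0, with a median of 0.11, while 49.7% of all genes were below 0. Of the 31, 2 had an unadjusted p under 0.05, against 3.7% of all genes: Car12 at 0.61 (SE 0.19) and Pfkfb4 at -0.48 (SE 0.20), and neither passed adjustment in limma's test. Vegfa was then at 0.41 and Car9 at 0.85. PyMT/ETP replicate 1 was likewise singled out for its low values of these genes. Leaving out PyMT/ETP replicate 2 or PyMT control replicate 1 gave 1 of the 31 genes under 0.05 in limma's test. Leaving out PyMT control replicate 2 or 3 gave 0. The share of all genes in these 4 settings ran from 3.1% to 6.3%.

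**Figure D4:**
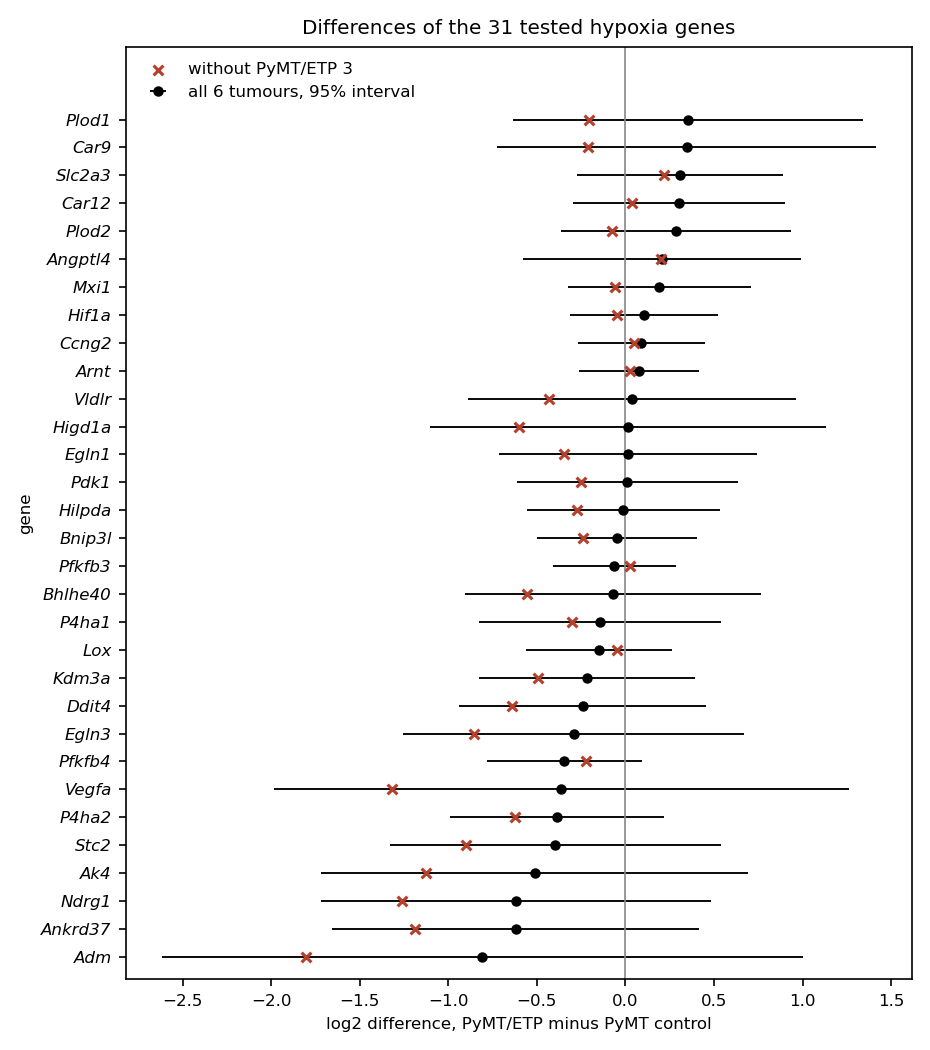
Black points give the difference of each tested hypoxia gene, PyMT/ETP minus PyMT control in log2 units, with its 95% interval from limma over 6 tumours, ordered by size. Red crosses give the difference without PyMT/ETP replicate 3. All 31 intervals cross 0, and the crosses lie to the left of the points for most genes, as for Vegfa at -1.32 against -0.36.

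Other hypoxia genes were also often highest in PyMT/ETP replicate 3. Of 12 tested genes of glycolysis and glucose uptake, 8 were highest in PyMT/ETP replicate 3 (66.7%) and 9 were lowest in replicate 1. Slc2a1, the glucose transporter GLUT1 gene, was at 10.15, 10.50 and 11.76 in PyMT/ETP tumours, against 11.01, 11.33 and 11.21 in PyMT control tumours. Between the groups 4 of the 12 were above 0 and 8 below, none passed, and the median difference was -0.12. Aldoc, an aldolase gene, and Hk1, a hexokinase gene, had differences of 0.38 and 0.29. Of 33 other hypoxia-induced genes, 13 were highest in PyMT/ETP replicate 3 (39.4%, against 16.7% of all genes). A control tumour stood almost as high for these 33. PyMT control replicate 2 was the highest for 10 (30.3%, against 18.4% of all genes). The median deviation was 0.18 in PyMT/ETP replicate 3 and 0.17 in PyMT control replicate 2. Here 9 differences were above 0 and 24 below, with a median of -0.09, and none passed. Maff, a small basic leucine zipper gene, was at 4.69, 5.10 and 5.84 in PyMT/ETP tumours, against 5.59, 5.90 and 6.12 in PyMT control tumours, a difference of -0.66 with an unadjusted p of 0.0458 (limma adjusted p = 0.997). Anxa2 and Tfrc, the annexin A2 and transferrin receptor genes, had -0.19 and -0.25, and the groups of Anxa2 did not overlap (3.65% of all genes were lower without overlap).

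Regulators of HIF had a median deviation of 0.02 in PyMT/ETP replicate 3. Of 18 tested HIF regulators, 2 were highest in PyMT/ETP replicate 3 (11.1%), 9 differences were above 0 and 9 below, and none passed. Vhl, the ubiquitin ligase subunit that binds hydroxylated HIF, had a difference of 0.32, the coactivator gene Ep300 0.26 and Cited4, which competes for coactivators, -0.24. The groups of Ep300 (higher) and Cited4 (lower) did not overlap, which makes 2 of 18 (11.1%), near the 8.19% of all genes. Among VEGF and adrenomedullin ligands and receptors, 4 of 11 were highest in PyMT/ETP replicate 3, and 7 differences were above 0 and 4 below. Pgf was at 6.51, 7.04 and 8.95 in PyMT/ETP tumours, against 8.20, 7.90 and 6.57 in PyMT control tumours. The VEGF receptor gene Kdr, the ligand gene Vegfd and the receptor modifier gene Ramp1 had differences of 0.26, 0.41 and 0.22, and none passed.

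Relatives of the listed enzymes were examined too. Of 7 other collagen hydroxylase, cofactor and lysyl oxidase genes, 1 was highest in PyMT/ETP replicate 3, and their differences lay between -0.11 (Loxl4, a lysyl oxidase relative) and 0.08 (P3h2, a prolyl 3-hydroxylase), with P3h1 at -0.06. None of 8 other carbonic anhydrases was highest there. Car14 was at 5.68, 5.48 and 5.62 in PyMT/ETP tumours, against 5.42, 5.11 and 5.12 in PyMT control tumours, with non-overlapping groups (4.54% of all genes were higher without overlap). Its difference was 0.37 with an unadjusted p of 0.0341, and it did not pass (limma adjusted p = 0.997). Car13, also without overlap but lower, was at 8.34, 8.33 and 8.29 in PyMT/ETP tumours, against 8.38, 8.74 and 8.60 in PyMT control tumours, a difference of -0.25 (named after its values were seen). Of all genes, 3.65% were lower without overlap. Car2 and Car11 had -0.49 and -0.36. Of 10 mitophagy and autophagy genes, 4 were highest in PyMT/ETP replicate 3, with differences of 0.19 for Fundc1, 0.21 for Becn1 and 0.10 for Map1lc3b, none of which passed.

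**Figure D5:**
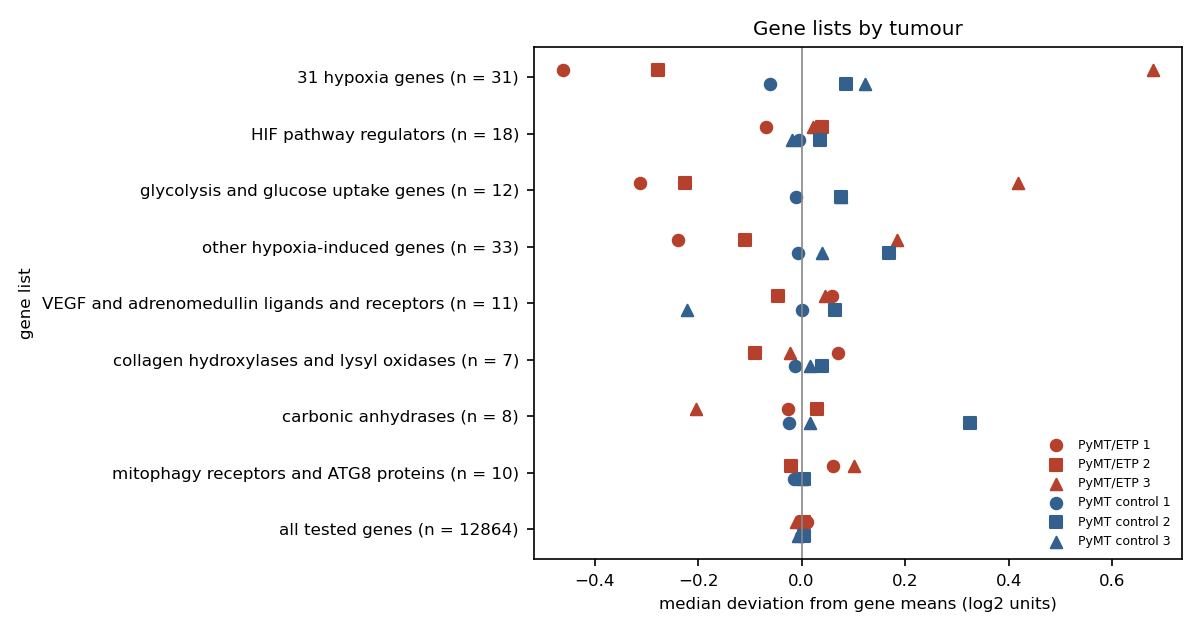
Each row is a gene list and each point a tumour, placed at the median deviation of the list's tested genes from their own means, in log2 units. Red marks are PyMT/ETP tumours and blue marks PyMT control tumours. PyMT/ETP replicate 3 stands far right for the 31 hypoxia genes (0.68) and the glycolysis genes (0.42), and between -0.20 and 0.18 for the other lists.

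The arrays and marker genes gave the following context. Over all tested genes, the correlation between arrays ran from 0.977 to 0.990, and those of PyMT/ETP replicate 3 from 0.977 to 0.988. The value distribution is the same on each array as deposited, and no measure of RNA quality was analysed here. All 9 luminal epithelial markers were tested, and their summed corrected intensity ran from 50570 to 54028 in PyMT/ETP and from 53894 to 61698 in PyMT control tumours. The 10 endothelial markers summed to 1645, 1856 and 2023 in PyMT/ETP tumours, against 1674 to 2096 in PyMT control tumours. The markers did not share 1 order. From PyMT/ETP replicate 1 to 3, Egfl7, Esam, Kdr and Tie1 rose and Tek fell, while Cdh5, Cldn5, Emcn, Pecam1 and Sox17 did neither. The 8 fibroblast markers summed to 7399, 4628 and 3567 in PyMT/ETP tumours, against 4317 to 5392 in PyMT control tumours. The 9 measured macrophage markers summed to 7543, 6158 and 5381 in PyMT/ETP tumours, against 5350 to 5408 in PyMT control tumours. Both were highest in PyMT/ETP replicate 1, where the hypoxia genes were lowest.

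Of the 9 skeletal muscle markers the sum was 1163 in PyMT/ETP replicate 1 and 490 to 549 in the other 5 tumours. The 10 skin keratinocyte markers summed to 3941 to 6501 in PyMT/ETP and 5626 to 12094 in PyMT control tumours, and the 10 hair shaft markers to 57.7 to 102 in PyMT/ETP and 80.9 to 3045 in PyMT control tumours. Of the adipocyte markers, 9 had a probe, 5 were tested and Fabp4 was never above background, and they summed to 185 to 576 in PyMT/ETP and 196 to 726 in PyMT control tumours. The 4 red cell markers with a probe summed to 2813 to 6236 in PyMT/ETP and 4069 to 6511 in PyMT control tumours. No marker of the luminal, endothelial, fibroblast, macrophage, muscle, skin, hair or red cell lists was below the limit on every array. The part of these cell types in the spread of the hypoxia genes was not tested.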

How the data were processed

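Tumour RNA was labelled as biotinylated cRNA and hybridised to Illumina arrays, per the labels' protocols. The authors deposited intensity values of 45281 probes on 6 arrays, on a linear scale with a median of 96.5. Their sorted values differed between arrays by at most 0.185, and the software used is not given in the sources used here. A table from before normalization was not used: no label ties its 24 value columns to samples, so chip position was not tested as a batch.

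The background, a mode of 86.1 with an SD of 4.83, was estimated from the lowest 60% of the values. Intensities were corrected with limma's normexp model, 16 was added and log2 was taken. Tested probes exceeded 94.0, the 5% limit, on at least 3 arrays. Symbols came from the platform annotation and the RefSeq gene table, and a gene was represented by its brightest tested probe. Of the probes, 34885 had 1 symbol, 18 several and 10378 none. The test was limma 3.58.1 (R 4.3.3), two-sided, on 3 tumours a group, with Benjamini-Hochberg adjustment over all genes. The fit was tested on simulated data.

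The genes and lists were chosen with earlier results of these data known. Every listed gene is named. Levels in every tumour are given for the 14 tested genes of smallest p and for the tested HIF subunits. They are also given, chosen after their values were seen, for others that show the pattern and for Angptl4, which did not follow it. Up to 3 genes of smallest p are named from each related list, and Eno2, Pfkp and Pgf after their values were seen. The genes with a larger excess than Vegfa in PyMT/ETP replicate 3 are named for that rank.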

Additional observations from a re-analysis of the deposited data

How the results depend on the processing

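With limma, 0 genes passed with all 6 tumours, and this held under no background correction, offset 50, cyclic loess, the stricter background limit on all 6 arrays, no filter, the mean of all tested probes and the replicate block (lowest adjusted p with the block 0.998). Leaving out 1 tumour gave 0 to 16 genes, the 16 without PyMT control replicate 1, and leaving out PyMT control replicates 2 and 3, where hair and skin genes were high, gave 1; no hypoxia gene was among them. Samples with the same replicate number did not deviate together over all tested genes (r from -0.11 to -0.06). A correlation over all genes cannot exclude a pairing that touches few of them, so whether the numbers pair samples stays unknown. At unadjusted p 0.05 the count was 555, 498 with the replicate block, and 362 at the stricter limit, which tested 9880 genes. The median difference of the hypoxia genes ran from -0.28 to 0.11 with 1 tumour left out. In 6 settings added after the data were seen, PyMT/ETP replicate 3 was highest for 21 of 30 genes at the stricter limit, 22 of 34 with no filter and 22 of 31 in the other 4.

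All 31 differences shrank by over 1.5 times or turned with 1 tumour left out, and 8 kept their sign in every setting. Of the 31, 20 turned sign with 1 tumour left out. The values that follow also include named genes from the related lists, which are not among the 31: P3h2, P3h1, Becn1, Car11, Vegfd and Vhl. With 1 tumour left out, the differences that turned ran over these ranges: Adm -1.80 to 0.010, Angptl4 -0.22 to 0.44, Arnt -0.024 to 0.13, Bhlhe40 -0.55 to 0.23, Bnip3l -0.24 to 0.086, Car9 -0.21 to 0.85, Egln1 -0.35 to 0.35, Egln3 -0.86 to 0.073, Hif1a -0.047 to 0.26, Higd1a -0.60 to 0.48, Hilpda -0.28 to 0.21, Mxi1 -0.059 to 0.39, P3h2 -0.038 to 0.30, P4ha1 -0.42 to 0.13, Pdk1 -0.25 to 0.21, Pfkfb3 -0.15 to 0.024, Plod1 -0.21 to 0.75, Plod2 -0.075 to 0.47, Stc2 -0.90 to 0.0030, Vegfa -1.32 to 0.41, Vldlr -0.43 to 0.39. With cyclic loess they turned to Egln1 -0.0061, Higd1a -0.0029, and with the mean of all tested probes to Arnt -0.13, Egln1 -0.067, Hilpda 0.021, P3h1 0.061, Vldlr -0.10. Without PyMT control replicates 2 and 3 they turned to Adm 0.0020, Ak4 0.17, Arnt -0.031, Becn1 -0.11, Bhlhe40 0.11, Bnip3l 0.086, Car11 0.019, Higd1a -0.094, Hilpda 0.14, Lox 0.047, P4ha1 0.41, P4ha2 0.048, Pdk1 -0.034, Vegfd -0.0070, Vhl -0.036, Vldlr -0.10. Beyond the tumour left out, or the probes averaged, the cause was not tested. The median 95% interval of a hypoxia gene reached 0.68 log2 units to either side, against 0.39 over all genes, and the number of arrays limits the precision.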
